A study of Mus musculus with 36 samples.

Results

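Mouse duodenal organoids that received a pulse of DAPT every 90 min were harvested after 24, 48 or 72 h, and these 9 libraries, 3 for each duration, were compared with one another. They are 9 of the 36 libraries of a study that also used pulse periods of 130 and 170 min and a DMSO control, and they were chosen by their labelled treatment alone. All groups came from C57BL/6 mice, male or virgin female and past 8 weeks of age, with no transgene or mutant allele named in the labels. In each group the organoids were grown from duodenal crypts in medium with EGF, Noggin and R-Spondin, loaded into a microfluidic chip and kept under a flow of 200 µl per h. The DAPT solution for the 90 min period was 1.38 µM, and the longer periods used more concentrated solutions. Organoids were passaged 1 day before a 72 h run, 2 days before a 48 h run and 3 days before a 24 h run, so each group reached harvest 4 days after passage and differed in how much of that time was spent on the chip under pulses. Each library came from 20 to 50 organoids with no enrichment for a cell type. Nothing in the labels ties replicates to different cultures or mice, so p-values measure only the spread between these samples, which may be technical.

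Intestinal crypts hold stem cells whose daughters become absorptive enterocytes or secretory cells, the Paneth, goblet, enteroendocrine and tuft cells. Notch receptors, activated by Delta-like and Jagged ligands on neighbouring cells, are cut by gamma-secretase, and the freed fragment switches on Hes1, a repressor of the secretory factor Atoh1. Hes1 also represses its own gene, so its level oscillates, and DAPT, an inhibitor of gamma-secretase, was given in pulses to set the period of that oscillation. The series asks whether changing these oscillations alters the makeup of cell types. The 3 durations at a single period show whether levels differed with the time spent on the chip under pulses. The time under flow and the days from passage to the start of the run changed along with it, and these cannot be told apart.

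The 9 libraries held between 731932 and 1330171 molecules, counted by unique molecular identifiers (UMIs). The 2 lowest totals were those of 72 h replicate 1 (731932) and 24 h replicate 2 (769243). No gene had more than 2436 counts in any library. Levels are given as CPM, the counts relative to the library total, scaled by TMM factors, which are set by the bulk of genes. All 15 markers of intestinal epithelium were measured above the filter on low counts, among them the adhesion protein gene Epcam at 407 ± 37.3 CPM at 72 h and 416 ± 20.1 CPM at 24 h (SD, n = 3 each). Of 15 fibroblast markers, 6 were at 0 in every library, and Vim alone passed the filter, at 1.45, 3.03 and 5.72 CPM at 72 h, against 12.9, 5.5 and 16.2 CPM at 24 h. No immune cell marker passed it, and the T cell gene Cd3e and the myeloid gene Tyrobp had 0 counts in every library, while the leukocyte gene Ptprc had at most 1. Cd68 and Itgam, of the same immune list, had 1 to 10 and 1 to 17 counts. The endothelial genes Cdh5 and Kdr had 0 counts, and Pecam1 at most 1. Other members of the endothelial list were present, with Vwf at 1 to 9 counts. Prox1 and Lyve1 passed the filter, at 24 to 60 and 20 to 55 counts over the 9 libraries. In such bulk RNA, fewer cells of a type and less RNA per cell cannot be told apart.

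No gene passed an adjusted p of 0.05 between 72 and 24 h of 90 min pulses. Of 11027 genes tested with edgeR's quasi-likelihood test, 0% were called, and the smallest adjusted p was 0.924. At an unadjusted p under 0.05 there were 215 genes, of which 106 stood higher at 72 h (0.961% of those tested) and 109 lower (0.988%). DESeq2 also called 0 genes, with 71 at an unadjusted p under 0.05. The median fitted change over all tested genes was -0.0035 on the log2 scale, and the median standard error was 0.18. For 9175 genes (83.2%) the 95% interval of the change lay within 2-fold in either direction, and for 6486 (58.8%) it lay within 1.5-fold. For the rest of the tested genes a 2-fold difference was not excluded at this depth and number of libraries.

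**Figure D1:**
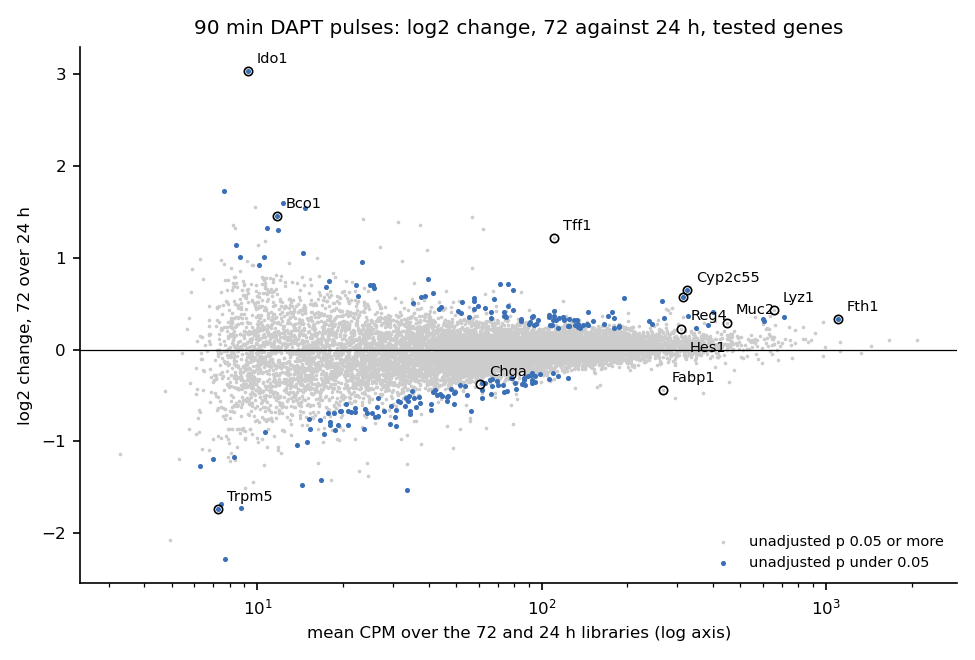
Log2 change at 72 against 24 h of 90 min pulses (vertical axis) against the mean CPM over the 6 libraries (horizontal axis, log scale), with 1 point for each of 11027 genes. Blue points are the 215 genes at an unadjusted p under 0.05, of which 0 passed after adjustment. The cloud narrows as the level rises, and Ido1, at 3.02, is the highest point.

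The gene with the smallest p was Cyp2c55, a cytochrome P450 that oxidises arachidonic acid. It measured 435, 384 and 369 CPM at 72 h, against 254, 303 and 208 CPM at 24 h, and 273, 292 and 269 CPM at 48 h. Every 72 h library lay above every library of the other durations. The log2 change at 72 against 24 h was 0.65 (SE 0.13, 95% interval 0.37 to 0.92), with an adjusted p of 0.924 in edgeR's test. Across the alternatives its change ran from 0.52 to 0.78, and its adjusted p ran from 0.000711 with no filter on low counts to 1.00. Other settings under the threshold were the library total as a covariate (0.0108) and leaving out 24 h replicate 2 (0.0397).

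Reg4, a secreted lectin of deep crypt secretory and enteroendocrine cells, came next among genes with a gene name. It measured 417, 404 and 305 CPM at 72 h, against 255, 246 and 254 CPM at 24 h, with no overlap. The 48 h libraries held 252, 307 and 247 CPM, so the 72 h libraries overlapped with these. The log2 change at 72 against 24 h was 0.57 (SE 0.13, 95% interval 0.29 to 0.85, edgeR adjusted p 1.00). Without the filter on low counts its adjusted p was 0.0106, the lowest among the alternatives.

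Ido1, which encodes an enzyme that breaks down tryptophan, was the third. It had 16, 19 and 10 counts at 72 h, against 4, 0 and 2 counts at 24 h, and 19, 16 and 3 counts at 48 h. The 72 and 24 h libraries did not overlap, but these are few molecules. The fitted log2 change was 3.02 (SE 0.76, 95% interval 1.42 to 4.63, edgeR adjusted p 1.00). With no filter on low counts its adjusted p was 0.00937.

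**Figure D2:**
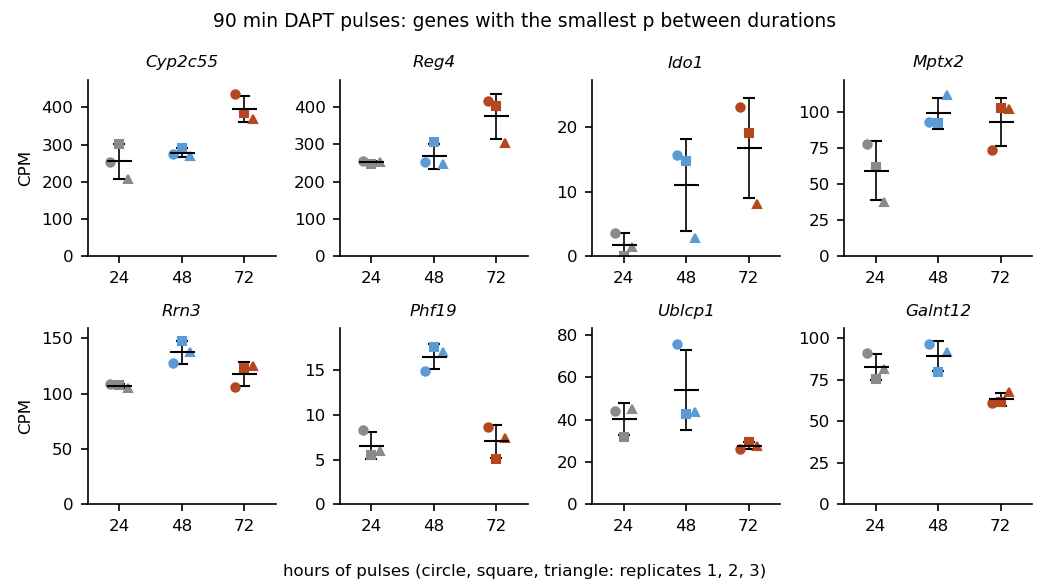
CPM of 8 genes in each of the 9 libraries, by hours of 90 min pulses, taken as the 3 of smallest p in each comparison of durations among genes other than predicted ones such as Gm9843. Circles, squares and triangles are replicates 1, 2 and 3, and bars are the mean ± SD (n = 3). Cyp2c55 at 72 h lies above all other libraries, and Phf19 at 48 h lies above those of both other durations.

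The Notch pathway showed no gene past the threshold. Of 24 listed ligands, receptors, processing enzymes and targets, 17 were tested, with a median log2 change of -0.02 at 72 against 24 h. Among these, 1 was higher and 0 lower at an unadjusted p under 0.05, beside 0.961% and 0.988% over all genes. That gene was the ligand Jag2, at 59.3, 68.6 and 69.5 CPM at 72 h, against 48.7, 53.7 and 45.8 CPM at 24 h. Its groups did not overlap, and its log2 change was 0.44 (SE 0.20, 95% interval 0.01 to 0.86, edgeR adjusted p 1.00). The ligand Dll1 measured 49.2, 58.5 and 52.3 CPM at 72 h, against 68.9, 63.3 and 64.3 CPM at 24 h. All 72 h libraries lay below those of 24 h for Dll1, with a log2 change of -0.29 (SE 0.17, 95% interval -0.65 to 0.06). Dll4, a second Delta-like ligand, held 52.1, 54.5 and 55.6 CPM at 72 h, against 65.2, 49.5 and 67.9 CPM at 24 h, and these overlapped. The receptor Notch2 averaged 113 ± 11.2 CPM at 72 h and 111 ± 16.7 CPM at 24 h (SD, n = 3 each). Nicastrin, the gamma-secretase subunit encoded by Ncstn, had a fitted change of 0.00056, with a 95% interval from -0.28 to 0.28.

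Hes1, the Notch effector whose oscillation the pulses address, measured 367, 336 and 298 CPM at 72 h, against 279, 297 and 278 CPM at 24 h, and 279, 283 and 317 CPM at 48 h. Each 72 h library exceeded each 24 h library, by as little as 298 against 297 CPM at the nearest pair. The log2 change was 0.23 (SE 0.11, 95% interval -0.02 to 0.47, edgeR adjusted p 1.00), so neither an equal level nor a rise of about this size is excluded. Bulk RNA at harvest is a mean over many cells at a single time and does not measure the period or amplitude of the oscillation. Whether cells shared a phase at harvest, or how the level depends on the time since the last pulse, was not tested. Atoh1, the transcription factor that starts secretory fate, held 113, 105 and 109 CPM at 72 h, against 119, 77.1 and 106 CPM at 24 h. The 72 h values fell inside the range of the 24 h values, and the log2 change was 0.08 (SE 0.15, 95% interval -0.22 to 0.39). Of 16 secretory progenitor genes, 14 were tested, with 2 positive and 12 negative changes and a median of -0.15. None was at an unadjusted p under 0.05 in either direction.

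**Figure D3:**
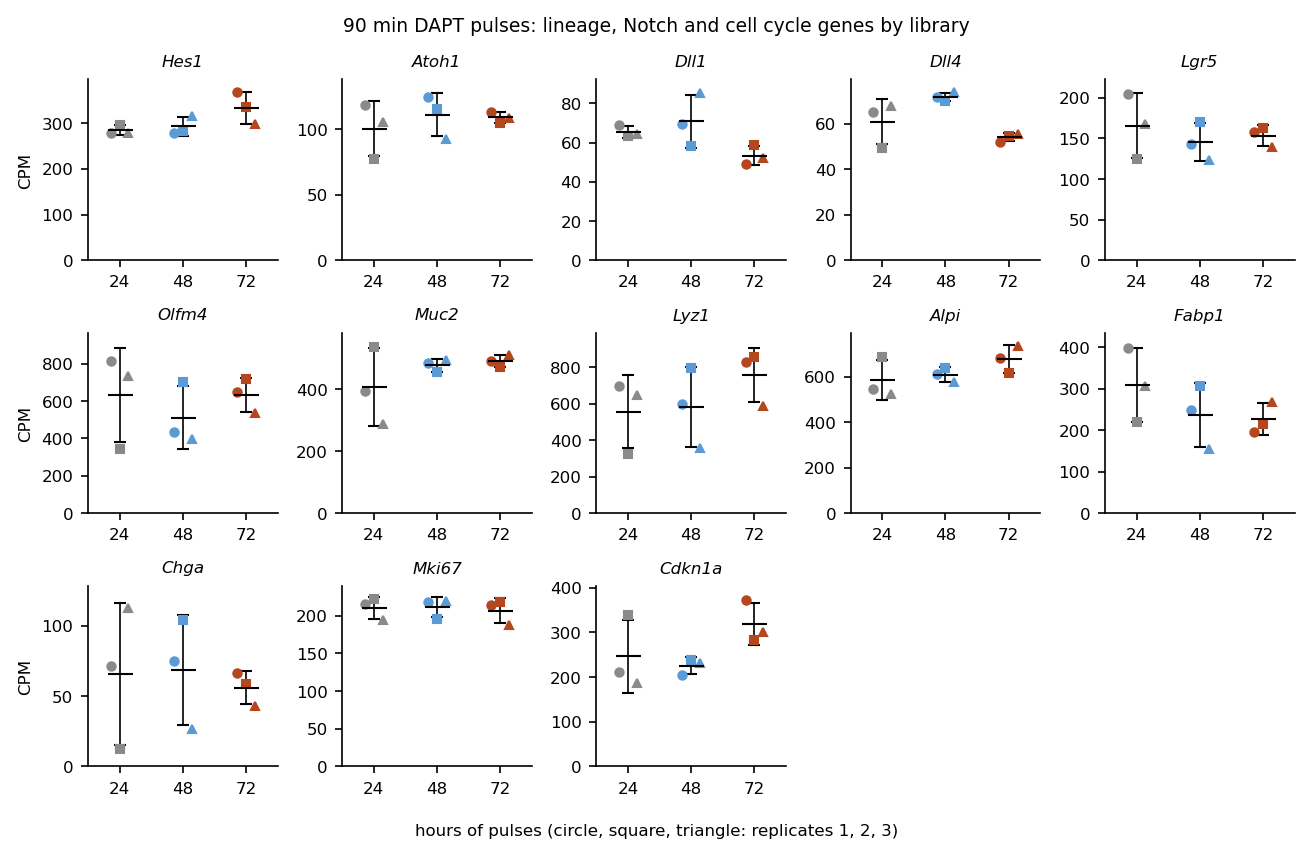
CPM of 13 Notch, lineage and cell cycle genes in each of the 9 libraries, by hours of 90 min pulses. Circles, squares and triangles are replicates 1, 2 and 3, and bars are the mean ± SD (n = 3). Mki67 stays between 188 and 222 CPM in all libraries, while Chga spans 12.4 to 113 CPM.

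No stem cell gene passed the threshold between durations. Of 20 listed genes 19 were tested, with 7 positive and 12 negative changes, a median log2 change of -0.02 at 72 against 24 h and 0 at an unadjusted p under 0.05. Lgr5, the R-Spondin receptor that marks crypt base stem cells, measured 158, 163 and 139 CPM at 72 h, against 205, 125 and 168 CPM at 24 h. Its log2 change was -0.14 (SE 0.16, 95% interval -0.48 to 0.19). Olfm4, a stem cell gene that Notch signalling maintains, averaged 634 ± 90.6 CPM at 72 h and 632 ± 252 CPM at 24 h (SD, n = 3 each). The wide spread at 24 h came with the lowest value, 345 CPM, in replicate 2, and the interval of the change ran from -0.80 to 0.78. Ascl2, a Wnt target that specifies stem cells, had a change of -0.04 (95% interval -0.30 to 0.23).

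Paneth cell genes, which encode the defensins and lysozyme that these cells secrete into the crypt, gave 17 positive and 5 negative fitted changes at 72 against 24 h, without a gene past the threshold. Of 27 listed genes 22 were tested, with a median log2 change of 0.27, against -0.0035 over all genes. Other lists were also mostly positive. The short list of BMP targets had 5 positive and 1 negative changes (median 0.28), and gastric or Brunner gland genes 4 and 1 (median 0.26). Nuclear genes of the respiratory chain had 36 positive and 4 negative changes (median 0.09), and cytosolic ribosomal protein genes 53 and 12 (median 0.08). At an unadjusted p under 0.05, 3 Paneth genes were higher and 0 lower, beside 0.961% and 0.988% over all genes. These were Reg4, Spink4, a protease inhibitor also made by goblet cells, and Mptx2, a mucosal pentraxin. Spink4 held 690, 670 and 649 CPM at 72 h, against 590, 541 and 463 CPM at 24 h, with no overlap. Mptx2 held 73.8, 103 and 102 CPM at 72 h, against 78.1, 61.9 and 37.7 CPM at 24 h, which overlapped. Lyz1, the Paneth lysozyme, measured 827, 860 and 590 CPM at 72 h, against 696, 326 and 651 CPM at 24 h. The Lyz1 values overlapped, and the log2 change of 0.43 had a standard error of 0.36. The defensin genes are near copies of one another, so how their reads were divided is uncertain.

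Goblet cell genes had a median log2 change of 0.12 over 31 tested members, with 3 higher and 1 lower at an unadjusted p under 0.05, beside 0.961% and 0.988% over all genes. The mucin gene Muc2 measured 492, 471 and 511 CPM at 72 h, against 394, 537 and 289 CPM at 24 h. The 72 h libraries lay within the wider range of 24 h, and the log2 change was 0.29 (SE 0.17, 95% interval -0.06 to 0.64). Clca1, a secreted protease of goblet mucus, held 366, 265 and 305 CPM at 72 h, against 210, 270 and 177 CPM at 24 h. It was at 0.52 (SE 0.17, edgeR adjusted p 1.00), and the lowest 72 h library was below the highest 24 h library. With no filter on low counts its adjusted p was 0.0357. The lower gene was Galnt12, an enzyme that adds the first sugar to mucins, at 60.8, 61.6 and 67.8 CPM at 72 h, against 91.0, 75.7 and 81.2 CPM at 24 h.

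Enteroendocrine genes, which encode gut hormones and granule proteins, had the widest range over the 9 libraries among the 37 lists with 3 or more tested members, and 0 of them passed the test. Chga, the granule protein chromogranin A, measured 66.5, 58.5 and 43.3 CPM at 72 h, against 71.7, 12.4 and 113 CPM at 24 h, and 75.2, 104 and 26.5 CPM at 48 h. The highest library held 9.12 times the level of the lowest, and the log2 change at 72 against 24 h was -0.37 (SE 0.71, 95% interval -2.08 to 1.34). Tac1, the precursor of substance P, held 69.4, 88.8 and 49.9 CPM at 72 h, against 77.2, 26.1 and 122 CPM at 24 h, and 88.4, 107 and 19.9 CPM at 48 h. The hormone genes Cck and Ghrl were also lowest in 24 h replicate 2 and 48 h replicate 3, with 17.9 and 30.3 CPM of Cck and 22.0 and 25.5 CPM of Ghrl. Of 25 listed genes 16 were tested, with a median change of -0.28 at 72 against 24 h and 0 at an unadjusted p under 0.05.

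The same libraries were low in RNA from the Y chromosome. The summed level of Eif2s3y, Ddx3y, Kdm5d and Uty was 99.8, 139 and 85.0 CPM at 72 h, against 162, 39.9 and 338 CPM at 24 h, and 230, 262 and 49.2 CPM at 48 h. Xist, the RNA of the inactive X chromosome in female cells, had at most 2 counts in each of the 9 libraries. The order of libraries by Chga was nearly that by Y-linked RNA. With the Y-linked level as a covariate, an alternative chosen after the data were seen, the log2 change of Chga at 72 against 24 h was 0.31 (edgeR adjusted p 1.00). The labels give neither the sex nor the donor of a library.

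**Figure D4:**
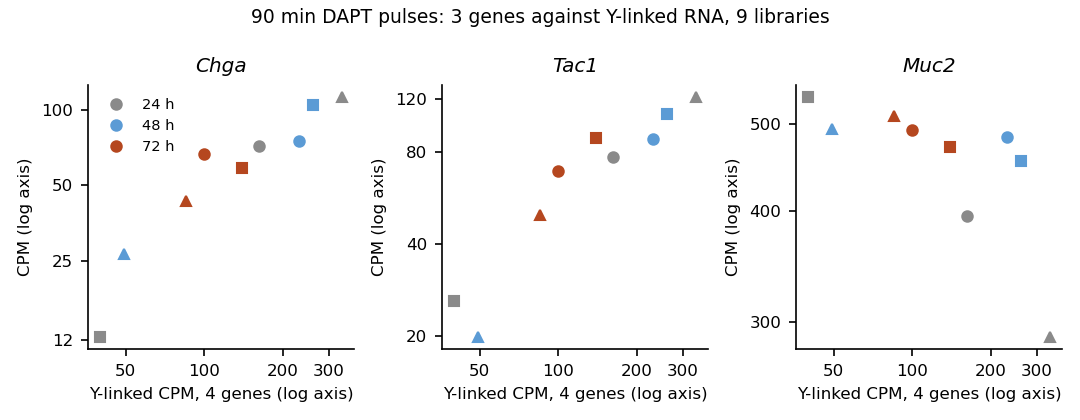
CPM of Chga, Tac1 and Muc2 (vertical axes, log scale) against the summed CPM of 4 Y-linked genes (horizontal axes, log scale) in the 9 libraries of 90 min pulses. Colours mark the hours of pulses, and circles, squares and triangles are replicates 1, 2 and 3. Chga and Tac1 are lowest in the 2 libraries with the least Y-linked RNA, 39.9 and 49.2 CPM, and Muc2 is lowest in the library with the most, 338 CPM.

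Tuft cells, the chemosensory cells of the epithelium, left few counts, and 7 of 19 listed genes were tested, with a median log2 change of -0.48, 2 positive and 5 negative. At an unadjusted p under 0.05, 0 were higher and 1 lower, beside 0.961% and 0.988% over all genes. Trpm5, the cation channel of tuft cell signalling, held 1.45, 3.03 and 4.90 CPM at 72 h, against 12.9, 9.63 and 11.8 CPM at 24 h, with no overlap. Its log2 change was -1.74 (SE 0.56, 95% interval -2.92 to -0.55, edgeR adjusted p 1.00). Ltc4s, which encodes leukotriene C4 synthase, held 8.68, 18.2 and 29.4 CPM at 72 h, against 12.9, 13.8 and 8.86 CPM at 24 h, with overlap and a log2 change of 0.77 (SE 0.41). The tuft marker Dclk1 did not pass the filter, with 2, 5 and 8 counts at 72 h, against 7, 7 and 19 counts at 24 h.

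No absorptive gene passed the threshold between 72 and 24 h. Of 46 enterocyte genes 45 were tested, with log2 changes from -1.08 to 0.25, a median of -0.01, 22 positive and 23 negative, and 0 at an unadjusted p under 0.05. Alpi, the brush border alkaline phosphatase, measured 684, 617 and 736 CPM at 72 h, against 547, 688 and 524 CPM at 24 h. Its change was 0.22 (SE 0.13, 95% interval -0.05 to 0.49). Fabp1, a fatty acid carrier of proximal enterocytes, held 195, 216 and 269 CPM at 72 h, against 399, 220 and 306 CPM at 24 h. These overlapped, with a change of -0.44 (SE 0.28, 95% interval -1.09 to 0.20). Brush border structure genes had a median of 0.06 over 19 tested members, villus tip genes -0.02 over 13, and neither list had a member at an unadjusted p under 0.05.

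Among enzymes of retinoid and xenobiotic metabolism, 23 of 26 were tested, with a median of 0.11, and 4 were higher and 0 lower at an unadjusted p under 0.05, beside 0.961% and 0.988% over all genes. Among these were the related P450 genes Cyp2c55, Cyp2c65 and Cyp2c66, whose similar sequences leave the division of reads among them uncertain. Cyp2c66 held 461, 433 and 471 CPM at 72 h, against 346, 365 and 318 CPM at 24 h, with no overlap. Cyp2c65 held 822, 749 and 822 CPM at 72 h, against 625, 762 and 498 CPM at 24 h, which overlapped. The fourth was Bco1, which cleaves beta-carotene into retinal, at 10.1, 16.1 and 24.5 CPM at 72 h, against 4.59, 8.26 and 6.65 CPM at 24 h, with no overlap. In the list of NRF2 targets and glutathione enzymes, 24 tested genes had a median of 0.15, with 2 higher. These were Fth1, the ferritin heavy chain, at 1226 ± 38.2 CPM at 72 h and 978 ± 178 CPM at 24 h, and the glutathione transferase Gsta3, at 299 ± 13.9 CPM at 72 h and 237 ± 24.1 CPM at 24 h (SD, n = 3 each).

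No proliferation gene passed the threshold between 72 and 24 h. Mki67, present in all cycling cells, measured 214, 218 and 188 CPM at 72 h, against 215, 222 and 194 CPM at 24 h, with a log2 change of -0.02 (SE 0.11, 95% interval -0.26 to 0.21). The 32 tested S phase genes had a median of 0.07 with 0 at an unadjusted p under 0.05. The 35 tested G2 and M phase genes also had a median of 0.07. Of them 1, the chromatin protein gene Hmgb2, was higher and 0 lower at that level, beside 0.961% and 0.988% over all genes. Cdkn1a, an inhibitor of the cell cycle and a p53 target, held 372, 284 and 302 CPM at 72 h, against 212, 340 and 187 CPM at 24 h, and 204, 239 and 233 CPM at 48 h. It overlapped between 72 and 24 h, where the change was 0.39 (SE 0.19, 95% interval -0.01 to 0.80), and did not overlap between 72 and 48 h. Of 27 p53 targets tested, 0 were at an unadjusted p under 0.05 at 72 against 24 h.

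Stress, inflammatory and regenerative lists gave few members. The unfolded protein list had a median of -0.0028 over 37 tested genes, heat shock genes 0.08 over 20, hypoxia and glycolysis genes -0.03 over 30 and cholesterol synthesis genes 0.02 over 25, each with 0 at an unadjusted p under 0.05. Of 40 interferon genes 13 were tested, with 0 in either direction, and no gene of MHC class II passed the filter. Genes of the fetal-like programme and of YAP, both known from regenerating epithelium, had a median of 0.01 over 34 tested members. Their mean level stood highest in 72 h replicate 1 and 24 h replicate 2, which were also the libraries with the lowest totals. Anxa1, a member of that list, held 273, 209 and 163 CPM at 72 h, against 144, 338 and 168 CPM at 24 h.

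**Figure D5:**
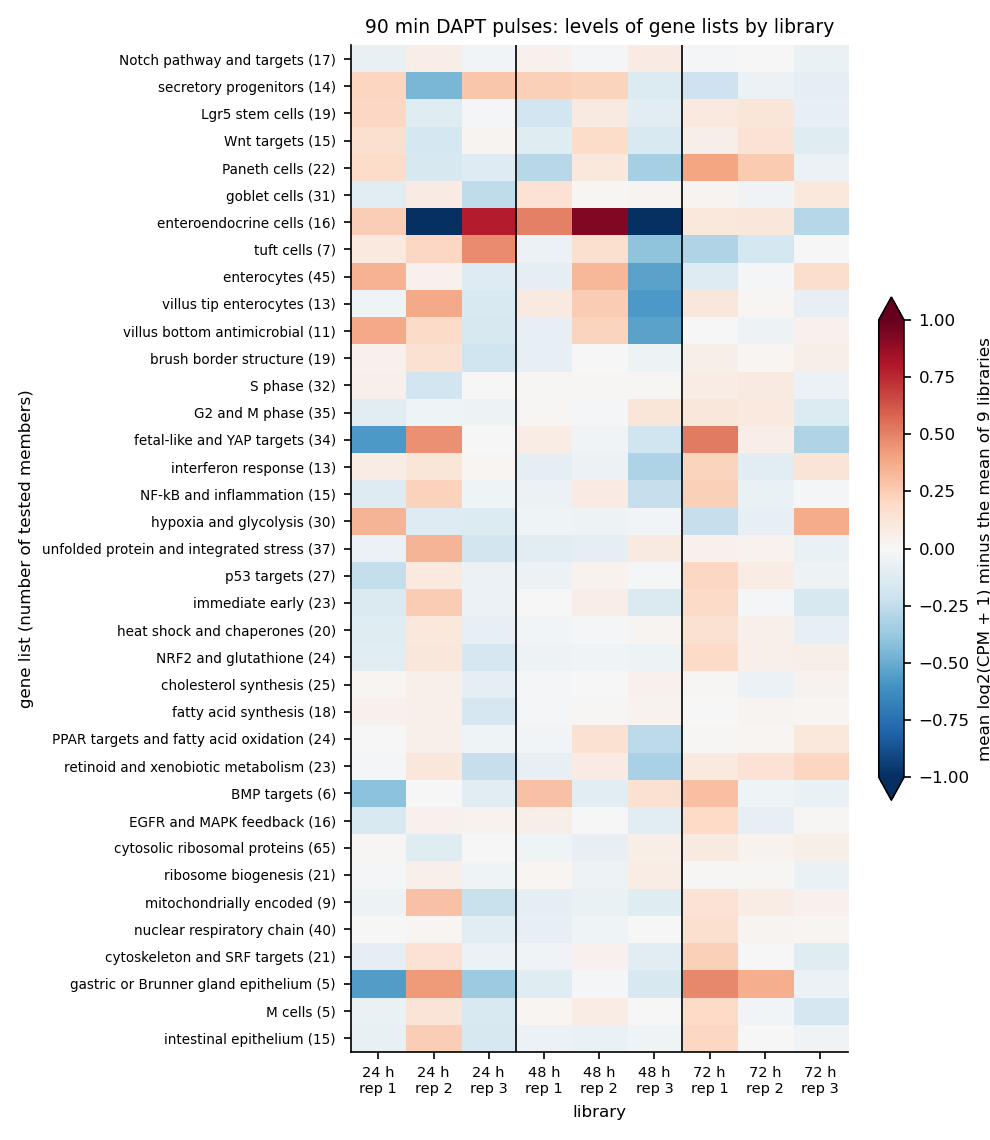
Mean log2(CPM + 1) of the tested members of 37 gene lists in each of the 9 libraries, minus the mean of the 9, with red above and blue below. Columns are libraries in order of hours of 90 min pulses, and the number of tested members follows each name. The enteroendocrine row has the widest range, 3.43 to 5.72 before centring, and its darkest blue cells are 24 h replicate 2 and 48 h replicate 3.

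Between 48 and 24 h, 0% of 11027 genes passed in edgeR's test, with the smallest adjusted p at 1.00. At an unadjusted p under 0.05, 84 genes stood higher (0.762%) and 62 lower (0.562%), and DESeq2 called 0 with 41 at that level. The interval lay within 2-fold for 9429 genes (85.5%). Mptx2 had the smallest p among genes with a gene name, at 93.3, 92.3 and 112 CPM at 48 h, against 78.1, 61.9 and 37.7 CPM at 24 h. Its groups did not overlap, and the log2 change was 0.77 (SE 0.21, 95% interval 0.31 to 1.23, adjusted p 1.00). With no filter on low counts its edgeR adjusted p was 0.00868 at 48 against 24 h and 0.0337 at 72 against 24 h. Rrn3, an initiation factor of RNA polymerase I, held 127, 148 and 137 CPM at 48 h, against 108, 107 and 105 CPM at 24 h. The Polycomb protein gene Phf19 held 14.9, 17.5 and 17.0 CPM at 48 h, against 8.27, 5.5 and 5.91 CPM at 24 h, and 8.68, 5.05 and 7.36 CPM at 72 h. Its 48 h libraries stood apart from those of both other durations. Goblet genes had 4 members higher (Clca1, Fcgbp, Ramp1 and Capn9) and 0 lower of 31 at an unadjusted p under 0.05. Paneth genes had 1 higher (Mptx2) and 2 lower (Defa26 and Defa29) of 22.

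Between 72 and 48 h, 0% of 11027 genes passed, with the smallest adjusted p at 0.155 in edgeR's test. At an unadjusted p under 0.05, 122 genes stood higher (1.11%) and 154 lower (1.4%), and DESeq2 called 0 with 82 at that level. The gene behind the 0.155 was the predicted gene Gm9843, which lies outside the naming rule and was chosen after its values were seen. It held 207, 252 and 233 CPM at 72 h, against 145, 126 and 160 CPM at 48 h, and 151, 165 and 159 CPM at 24 h. Its 72 h libraries lay above all others, with a log2 change of 0.69 (SE 0.12, 95% interval 0.45 to 0.94) against 48 h. Without the filter its adjusted p was 0.000137. Cyp2c55 was 0.50 (SE 0.13) higher on the log2 scale, and its libraries did not overlap. Ublcp1, a phosphatase of the proteasome, held 26.0, 29.3 and 27.8 CPM at 72 h, against 76.0, 42.5 and 43.5 CPM at 48 h. Galnt12 was the third, with a log2 change of -0.49 (SE 0.13).

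Paneth genes had 8 members higher and 0 lower of 22 at an unadjusted p under 0.05 at 72 against 48 h, beside 1.11% and 1.4% over all genes. Their median was 0.41, against 0.0034 over all genes. The 8 were Defa17, Defa29, Defa30, Mmp7, Ang4, Reg4, Habp2 and Clps. Defa29, a defensin, held 336, 270 and 213 CPM at 72 h, against 169, 236 and 158 CPM at 48 h, and 312, 217 and 297 CPM at 24 h. The 72 and 48 h libraries overlapped, as did those of 72 and 24 h. Without the filter on low counts Defa29 passed as lower at 48 against 24 h, with an edgeR adjusted p of 0.0128. Mmp7, the protease that activates defensins in mice, held 525, 464 and 367 CPM at 72 h, against 296, 379 and 353 CPM at 48 h. Clps, a pancreatic colipase found in Paneth cells, was the member whose groups did not overlap, at 255, 253 and 215 CPM at 72 h, against 157, 202 and 174 CPM at 48 h. The mean level of the list was 7.91, 7.77 and 7.46 at 72 h, against 7.24, 7.62 and 7.18 at 48 h, on the log2(CPM + 1) scale. At 24 h it was 7.70, 7.35 and 7.38. The list had 5 positive and 17 negative changes at 48 against 24 h (median -0.21), so its 48 h levels were low beside both other durations. The 72 h replicate 3 was below 48 h replicate 2, and 48 h replicate 3, the lowest, was also low in enteroendocrine and Y-linked RNA. Among other lists in this comparison, 2 of 17 Notch genes, Dll1 and Dll4, were lower and 0 higher at an unadjusted p under 0.05. Of 19 stem cell genes 2 were higher, Gkn3 and Igfbp4, and 0 lower. Retinoid and xenobiotic enzymes had 4 higher and 0 lower of 23. Cytosolic ribosomal protein genes had 4 higher and 1 lower of 65, and enterocyte genes 2 higher and 0 lower of 45. Gkn3 averaged 128 CPM at 24 h, 91.3 CPM at 48 h and 122 CPM at 72 h. Igfbp4, a binding protein of insulin-like growth factors, held 220, 216 and 199.5 CPM at 72 h, against 121, 161 and 182 CPM at 48 h, with no overlap. Dll4 held 52.1, 54.5 and 55.6 CPM at 72 h, against 71.8, 70.2 and 73.7 CPM at 48 h, with no overlap and a change of -0.41 (SE 0.15, edgeR adjusted p 1.00).

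A test of any difference among the 3 durations, with no direction, called 0 genes and had 152 at an unadjusted p under 0.05, with the smallest adjusted p at 0.300 in edgeR's test. The first principal component held 32.0% of the variance and set 24 h replicate 2 and 72 h replicate 1 apart from the rest. Among genes with a mean of at least 50 CPM, the widest spread over the 9 libraries was that of Mup20, which encodes a major urinary protein, with 143, 80.7 and 34.3 CPM at 72 h, against 29.4, 9.63 and 42.8 CPM at 24 h. Ctse, a protease of gastric-type epithelium, held 216, 126 and 73.6 CPM at 72 h, against 22.1, 209 and 113 CPM at 24 h. Enpep, a brush border aminopeptidase, held 28.9, 40.4 and 28.6 CPM at 72 h, against 82.7, 22.0 and 90.8 CPM at 24 h. In each of these genes the 72 and 24 h libraries overlapped.

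The change with duration at 90 min was also set against that of the other treatments, in a fit of all 36 libraries with 11462 genes tested. The difference in the 72 against 24 h change passed in 0% of genes against DMSO, 0% against 130 min and 0% against 170 min pulses, with 336, 797 and 181 genes at an unadjusted p under 0.05. Within a treatment, the 72 against 24 h change called 24 genes at 130 min and 0 each at 170 min and in DMSO. The log2 change of Cyp2c55 was 0.64 (SE 0.23) at 90 min, against 0.39 (SE 0.23) at 130 min, 0.55 (SE 0.23) at 170 min and 0.58 (SE 0.24) in DMSO. All 4 estimates were positive, and the difference from DMSO was 0.07 (95% interval -0.62 to 0.75). Reg4 was at 0.57 (SE 0.22) at 90 min, against 0.24 (SE 0.23) at 130 min, 0.13 (SE 0.22) at 170 min and 0.18 (SE 0.23) in DMSO. Its difference from DMSO was 0.39 (95% interval -0.26 to 1.05).

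Hes1 was at 0.23 (SE 0.13) at 90 min, against -0.05 (SE 0.13) at 130 min, -0.10 (SE 0.13) at 170 min and -0.17 (SE 0.13) in DMSO. The estimate at 90 min was positive and the other 3 negative, with a difference from DMSO of 0.40 (95% interval 0.02 to 0.77, unadjusted p 0.0416, edgeR adjusted p 1.00). The differences of Hes1 from 130 min, 0.28 (95% interval -0.10 to 0.65), and from 170 min, 0.32 (95% interval -0.05 to 0.70), had intervals that include 0. Lyz1 was at 0.43 (SE 0.61) at 90 min, against -0.37 (SE 0.62) at 130 min, -0.82 (SE 0.62) at 170 min and -0.26 (SE 0.62) in DMSO, with intervals of every difference that include 0. Fabp1 was negative in each, at -0.44 (SE 0.47) at 90 min, against -1.86 (SE 0.50) at 130 min, -1.25 (SE 0.47) at 170 min and -0.67 (SE 0.47) in DMSO. Its difference from 130 min was 1.41 (95% interval 0.0064 to 2.82, edgeR adjusted p 0.712). The smallest p against 130 min pulses was that of Flna, the actin crosslinker filamin A. Flna held 135, 107 and 95.4 CPM at 72 h and 122, 122 and 132 CPM at 24 h of 90 min pulses, against 127, 138 and 143 CPM at 72 h and 95.3, 84.8 and 78.8 CPM at 24 h of 130 min pulses. The difference of the changes was -0.83 (SE 0.16, 95% interval -1.16 to -0.50, edgeR adjusted p 0.140). It passed, at 0.00939, when 72 h replicate 1 of the 90 min pulses was left out, and its adjusted p ran up to 0.915 over the other alternatives. The smallest p against DMSO was that of Usp21, a deubiquitinase, at -0.74 (SE 0.20), and against 170 min that of the zinc finger gene Zfp358, at 1.03 (SE 0.30), both with an edgeR adjusted p of 1.00.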

How the data were processed

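Libraries of polyadenylated RNA were made by Sort-seq, per the labels' protocols. The submitters' processing notes name STAR 2.7.8a and UMI-tools 1.1.1. The authors deposited raw UMI counts, with a row for each gene symbol and a column for each library. No source used here names the genome build, annotation, counting strand or UMI length, and no coordinates are printed. Columns were mapped to samples by name, with 0 left over.

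The 9 libraries of 90 min pulses were fitted together with edgeR 4.0.16 in R 4.3.3, with filterByExpr (11027 of 34197 genes kept, 23170 not tested), TMM scaling, 1 coefficient for each duration, 6 residual degrees of freedom and robust quasi-likelihood F tests, two-sided. P-values were adjusted by Benjamini and Hochberg's method across every gene of a fit, and 0.05 was the threshold. Differences between treatments used all 36 libraries in 12 groups, with 24 residual degrees of freedom. CPM use TMM-scaled totals of these fits, so values of a gene differ slightly between the fits. List levels are the mean of log2(CPM + 1), with no test. Whether the libraries of compared durations overlap is given as description only, without the share of all tested genes that do not overlap. The scripts were tested on simulated data. The counts cover sampling of molecules only, and low genes have wide intervals.

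Libraries were checked for repeats, and no pair of replicates agreed within counting noise. The replicate numbers were checked for pairing, as given under the processing alternatives.

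With 0 genes called, those named were the 3 of lowest p per comparison, leaving out predicted genes, plus a panel of 14 genes (13 tested) and list members at an unadjusted p under 0.05 or most abundant. The 41 lists and these choices were made with earlier results of these data known. Alternatives were DESeq2 1.42.0, other scalings and filters, a replicate block, a depth covariate and leaving out each library, with 2 added after seeing the data.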

Additional observations from a re-analysis of the deposited data

How the results depend on the processing

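The counts of called genes, 0 in each comparison, were also 0 wherever run with DESeq2, RLE size factors, library totals alone, a minimum of 10 CPM in 3 libraries or the fit of all 36 libraries. With no filter on low counts edgeR called 7 genes at 72 against 24 h (Cyp2c55, Reg4, Ido1, Mptx2, Clca1, Gm9843 and Gm15535), 3 at 48 against 24 h (Mptx2, Defa29 and Enah), 3 at 72 against 48 h (Gm9843, AA467197 and Enah) and 13 for any difference. With the library total as a covariate there was 1 at 72 against 24 h, 1 at 72 against 48 h and 2 for any difference. Leaving out 1 library gave 0 to 1 at 72 against 24 h (Cyp2c55, without 24 h replicate 2), 0 to 1 at 72 against 48 h (Gm9843, without the same library), 0 to 2 for any difference and 0 to 1 for the difference from 130 min pulses (Flna, without 72 h replicate 1 of 90 min pulses). Without both libraries of lowest total, an alternative chosen after seeing the data, there was 1 at 72 against 48 h and 1 for any difference. The causes were not tested.

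The direction at 72 against 24 h turned in genes near 0. Olfm4 was 0.0055 with DESeq2, 0.071 with the total as covariate, 0.15 with Y-linked RNA as covariate (also chosen after seeing the data) and -0.29 to 0.21 with 1 library left out. Leaving out 1 library gave -0.28 to 0.029 for Lgr5, -0.038 to 0.21 for Atoh1, -0.079 to 0.049 for Mki67 and -0.77 to 0.27 for Chga. Atoh1 was -0.059 without both libraries of lowest total, and Chga was 0.31 with Y-linked RNA as covariate. Of 571 alternative values of single genes, 551 kept direction and side of the threshold.

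Same-numbered libraries did not deviate together (correlations -0.31 to 0.067), so the numbers are not taken as pairs. With the replicate block the count of calls was 0 in each comparison. Depth limits genes of few molecules, such as Ido1 and Trpm5.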

Other observations

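These relations were chosen after the data were seen. Y-linked RNA differed between the 9 libraries, and the 13 tested panel genes were related to its log2 summed CPM over these 9 libraries, with exact permutation tests, two-sided, adjusted over the 13. Chga rose with it, with Pearson r 0.94 (exact permutation p 2.5e-05, adjusted 0.00032) and Spearman rho 0.98 (adjusted 0.00064). Its r was 0.91 without the 2 libraries farthest from the median and 0.96 with the mean of each duration removed. Muc2 had a Spearman rho of -0.90 (exact permutation p 0.00203, adjusted 0.0132) and a Pearson r of -0.70 (adjusted 0.0917). For the other 11 genes no adjusted p was under the threshold for either measure.

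In an edgeR fit with that level as a covariate beside duration, 99 of 11023 other genes (0.898%) passed, 72 with a positive and 27 with a negative slope, while 0 passed for duration. Of 16 enteroendocrine genes 9 had a positive slope past the threshold, among them Tac1 at 0.84 (SE 0.07) and Chga at 0.84 (SE 0.09) log2 units per doubling of Y-linked RNA, beside Lyz1 at 0.39 (SE 0.06). The Pearson r of Lyz1 with the Y-linked level was 0.71 over the 9 libraries. With the mean of each duration removed it was 0.91. Without the 2 libraries farthest from the median, and with duration means kept, it was -0.11, so the r of 0.71 rests on those 2. Whether the slope of Lyz1, from a fit with duration, also rests on them was not tested. Negative slopes past the threshold included 5 of 37 genes of the unfolded protein and integrated stress list, among them Trib3 at -0.92 (SE 0.12). In the 27 other libraries of the series, 2 had 56 and 140 counts of Xist and the rest at most 1, and 10 had fewer than 20 counts of the Y-linked genes, of which 8 also had fewer than 20 of Xist. What sets the level of Y-linked RNA was not tested.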
